A study of Mus musculus with 9 samples.

Results

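The nuclear genes of oxidative phosphorylation described here encode mainly subunits of respiratory chain complexes I to IV and of ATP synthase (complex V). They were chosen by symbol alone: names that begin with Nduf followed by a, b, c, s or v and a number, the 4 Sdh genes, names that begin with Uqcr, Cox4 to Cox8 or Atp5, without pseudogenes marked as such. That gave 84 of 47593 gene symbols, with 343 of 115220 transcripts, and the transcripts of a symbol were summed to 1 value per gene. Complex I had 37 genes, complex II 4, complex III 8, complex IV 18 and complex V 17. The names are not a perfect guide to the enzymes: Ndufa4 and Ndufa4l2 bear complex I names but encode proteins of complex IV, Cox7a2l encodes a protein that joins complexes III and IV, and Atp5s and Atp5sl are not counted among the structural subunits. The rule also leaves out some nuclear subunits whose symbols differ, such as Cyc1 of complex III and Ndufab1 of complex I.

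RNA bound to ribosomes was isolated from neurons of the mPFC, the medial prefrontal cortex, in adult C57BL/6 mice, by RiboTag pull-down of a tagged ribosomal protein, and sequenced with a stranded total RNA kit. The 9 libraries make 3 groups of 3: enforced wake with a fusion of GFP and the RNA-binding protein Fxr1, a relative of FMRP, overexpressed in the mPFC; enforced wake with GFP alone overexpressed as the control; and sleep with the same GFP control. All 3 groups therefore carry the RiboTag allele and an overexpressed GFP sequence; the Cre line, the vehicle of overexpression, the sex and the exact age are not given in the sources used here. Nothing in the labels says that libraries of a group came from separate animals, so p-values measure only the spread between these libraries, which may be technical.

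Oxidative phosphorylation passes electrons from NADH (complex I) and succinate (complex II) through complexes III and IV to oxygen, and the proton gradient that complexes I, III and IV build drives ATP synthase. Neurons depend on it for the ATP that ion pumping and synaptic transmission consume. All complexes but complex II combine nuclear subunits with a few subunits that mitochondrial DNA encodes, so the genes below need translation on cytosolic ribosomes, which RiboTag captures.

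The depth estimated from the smallest steps of the values was 2.99e+07 to 3.73e+07 fragments per library, and values are FPKM, fragments scaled by transcript length and by the mapped fragments of the library. Fxr1 stood at 91.1, 67.7 and 71.8 FPKM in enforced wake with Fxr1, at 34.8, 33.9 and 31.1 FPKM in enforced wake and at 31.7, 34.8 and 31.0 FPKM in sleep, so it was higher in the 3 libraries labelled with it; endogenous and introduced RNA cannot be told apart. Across genes, which are not independent replicates, Pearson's r between libraries of 1 group was 0.957 to 0.987 in enforced wake with Fxr1, 0.989 to 0.990 in enforced wake and 0.984 to 0.987 in sleep. The summed FPKM of 9 neuron markers was 3974 to 4134 in enforced wake with Fxr1, 3812 to 3968 in enforced wake and 4081 to 4245 in sleep. For 8 astrocyte markers the sum was 245 to 278 in enforced wake with Fxr1, 353 to 431 in enforced wake and 285 to 312 in sleep. For 8 oligodendrocyte markers it was 120 to 133 in enforced wake with Fxr1, 136 to 158 in enforced wake and 95.7 to 147 in sleep, and for 7 microglia markers 12.3 to 19.6 in enforced wake with Fxr1, 22.0 to 26.0 in enforced wake and 15.8 to 26.2 in sleep. In enforced wake against sleep, 2 neuron markers were higher and 2 lower, 2 astrocyte markers higher and 1 lower, 1 oligodendrocyte marker higher and 2 lower, 1 microglia marker higher, and 1 of 6 endothelial and mural markers lower (limma adjusted p under 0.05, which 28.3% of all genes passed). None of 3 blood markers passed, and 0 did so at an unadjusted limma p under 0.05. In Fxr1 against enforced wake 1 marker, the astrocyte gene Gfap, was lower, and in Fxr1 against sleep 1 astrocyte marker was higher and 2 astrocyte and 2 oligodendrocyte markers lower. RNA of glial cells was thus present in all libraries. In enforced wake the astrocyte sum lay above, and the neuron sum below, those of both other groups without overlap, and the oligodendrocyte and microglia sums lay above those of Fxr1 without overlap; the part of these cells in the results below was not tested. In bulk RNA of this kind, fewer cells of a type and less RNA per cell cannot be told apart.

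The genes were highly abundant in all 3 groups. Their summed FPKM made up 2.75% to 2.90% of all FPKM in enforced wake with Fxr1, 2.77% to 2.93% in enforced wake and 2.96% to 3.13% in sleep. The median gene had a mean of 88.3 FPKM over the 9 libraries, against 9.09 FPKM for all protein-coding genes with a mean of at least 0.5 FPKM, and 76 of the 84 had a mean of at least 10 FPKM. Their transcripts are short, with a median longest transcript of 977 nucleotides against 3400 for those protein-coding genes, while their median GC content, 50.2%, was near the 49.7% of the same genes. Only 4 symbols were too low to test: Cox4i2, Cox8b and Ndufa4l2, at 0 to 0.41 FPKM, and Cox8c, listed at 0 in all 9 libraries.

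Taking the most abundant gene of each complex, Atp5b, the catalytic beta subunit of ATP synthase, stood highest at a mean of 697 FPKM. Cox8a, a small subunit of cytochrome c oxidase, averaged 347 FPKM, and Ndufa4, highest under the complex I names, 244 FPKM. Uqcrb, a small subunit of complex III, averaged 232 FPKM, and Sdha, the flavoprotein of succinate dehydrogenase, 139 FPKM. Among genes with tissue isoforms, the forms found in most tissues dominated. Cox6a1 stood at 132 to 230 FPKM over the 9 libraries and the heart and muscle form Cox6a2 at 0.91 to 3.53 FPKM. Cox7a2 stood at 188 to 250 FPKM and the heart and muscle form Cox7a1 at 1.39 to 3.35 FPKM. Cox6b1 stood at 206 to 288 FPKM and Cox6b2, known for its expression in testis, at 0.89 to 4.97 FPKM. Of the 3 genes that encode the same mature c subunit of ATP synthase, Atp5g3 stood at 224 to 358 FPKM, Atp5g1 at 17.9 to 113 FPKM and Atp5g2 at 21.8 to 57.2 FPKM.

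**Figure D1:**
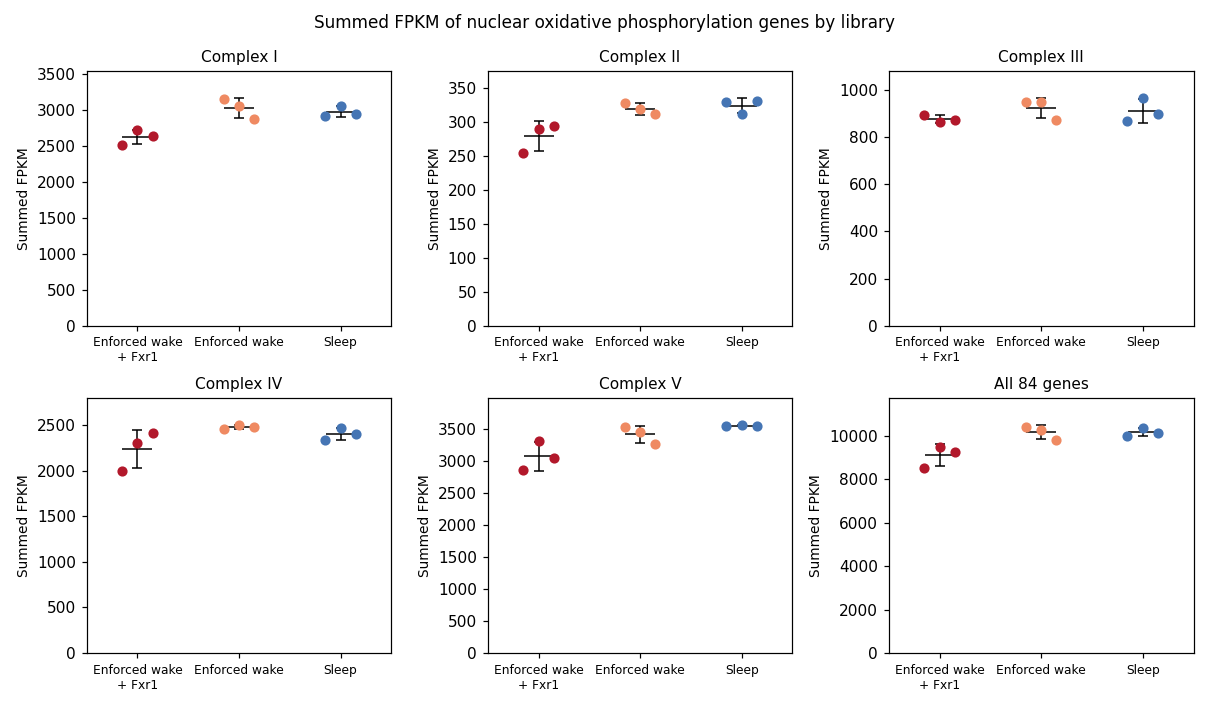
Summed FPKM of the genes of each complex (y axis, FPKM) in each library (points) of enforced wake with Fxr1, enforced wake and sleep, with the mean and SD of 3 libraries (bars). For all 84 genes the Fxr1 libraries sit between 8518 and 9480 FPKM, below the enforced wake libraries at 9798 to 10401 FPKM and the sleep libraries at 9991 to 10347 FPKM.

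The 84 genes summed to 8518, 9480 and 9259 FPKM in enforced wake with Fxr1, 10401, 10259 and 9798 FPKM in enforced wake and 9991, 10347 and 10118 FPKM in sleep. The Fxr1 libraries lay below all others; enforced wake and sleep overlapped. As a share of the FPKM of protein-coding genes the order held between Fxr1 (2.94%, 3.19% and 3.17%) and enforced wake (3.39%, 3.35% and 3.23%), but as a share of all FPKM these groups overlapped. By complex, the Fxr1 libraries lay below all enforced wake libraries in complexes I, II and IV and overlapped them in III and V. Complex I summed to 2515, 2712 and 2637 FPKM in enforced wake with Fxr1, 3142, 3052 and 2871 FPKM in enforced wake and 2916, 3055 and 2938 FPKM in sleep. Complex II summed to 255, 290 and 294 FPKM in enforced wake with Fxr1, 328, 318 and 311 FPKM in enforced wake and 330, 311 and 331 FPKM in sleep. In both, the Fxr1 libraries were the 3 lowest of the 9. Complex V was the 1 complex in which enforced wake and sleep did not overlap: it summed to 3530, 3444 and 3268 FPKM in enforced wake and 3541, 3552 and 3547 FPKM in sleep. Sums are led by the most abundant genes and are given as a description without a test.

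The promoters of 4 genes that are described below are shown because they hold the letters known to bind factors that control respiratory chain genes in mammals: NRF1, the ETS factor GABP, and YY1. Each window runs from 250 bases before to 50 after the annotated start (RefSeq, GRCm38.p6), reads 5′ to 3′ along the gene, and has matches in capitals. Uqcr11 (chr10:80406772-80407071, minus strand) holds an ETS match, Cox6a1 (chr5:115348909-115349208, minus strand) NRF1 matches and an ETS match on the other strand, Ndufb4 (chr16:37654319-37654618, minus strand) NRF1 matches only, and Atp5j (chr16:84834927-84835226, minus strand, the second of its starts) a YY1 and an ETS match. An exon of Atp5j overlaps an exon of Gabpa, which encodes the DNA-binding subunit of GABP, on the other strand.
Uqcr11: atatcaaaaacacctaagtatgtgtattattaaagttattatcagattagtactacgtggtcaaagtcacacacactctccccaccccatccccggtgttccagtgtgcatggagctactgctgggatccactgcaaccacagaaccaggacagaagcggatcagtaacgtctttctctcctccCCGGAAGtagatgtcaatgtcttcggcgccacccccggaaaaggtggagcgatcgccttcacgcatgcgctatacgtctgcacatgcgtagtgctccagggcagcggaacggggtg
Cox6a1: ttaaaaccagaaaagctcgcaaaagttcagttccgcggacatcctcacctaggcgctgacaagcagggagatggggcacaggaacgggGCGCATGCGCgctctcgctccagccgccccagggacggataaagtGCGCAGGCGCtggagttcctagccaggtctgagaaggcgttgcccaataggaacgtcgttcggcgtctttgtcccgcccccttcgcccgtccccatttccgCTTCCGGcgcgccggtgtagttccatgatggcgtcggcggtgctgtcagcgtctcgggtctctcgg
Ndufb4: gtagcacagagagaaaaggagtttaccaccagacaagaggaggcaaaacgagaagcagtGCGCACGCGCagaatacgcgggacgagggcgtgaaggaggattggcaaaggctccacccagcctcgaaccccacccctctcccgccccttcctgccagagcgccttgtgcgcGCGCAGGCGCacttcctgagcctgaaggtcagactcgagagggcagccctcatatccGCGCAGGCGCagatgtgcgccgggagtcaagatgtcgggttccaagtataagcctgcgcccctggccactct
Atp5j: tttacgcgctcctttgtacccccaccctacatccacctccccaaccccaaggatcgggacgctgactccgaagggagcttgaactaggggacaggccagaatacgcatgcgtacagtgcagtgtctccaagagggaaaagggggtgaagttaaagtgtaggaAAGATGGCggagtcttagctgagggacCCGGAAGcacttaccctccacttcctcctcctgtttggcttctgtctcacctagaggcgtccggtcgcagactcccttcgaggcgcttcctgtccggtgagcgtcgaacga

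Promoter windows were matched by symbol for 66 of the 84 genes. On either strand, 17 held the NRF1 consensus (shown in capitals in the Ndufb4 window; 25.8%, against 5.19% of 27025 genes with a window), 16 the ETS letters CCGGAAG (24.2% against 9.93%) and 9 the YY1 letters AAGATGGC (13.6% against 3.19%). At least 1 of the 3 stood in 36 (54.5% against 16.4%), and some windows held several. The SP1 letters GGGCGG were about as frequent as in all genes, 39.4% against 38.2%. Of the genes with a window that were higher in enforced wake, 7 of 11 held at least 1 of the 3, and of those that were lower, 5 of 5. A match describes letters in the window, not a bound site.

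Enforced wake against sleep, both with GFP alone, asks how ribosome-bound RNA differs after enforced waking. In enforced wake 13 of the 80 tested genes were higher and 8 lower (limma on log2(FPKM + 1), Benjamini-Hochberg adjusted p under 0.05). That is 26.2% of the genes, against 28.3% of all 14673 genes tested (15.7% higher and 12.7% lower), so the share is near the background and does not set these genes apart. The median difference was 0.03 on the log2(FPKM + 1) scale, with all genes at 0.0043, and 34 of 80 genes had no overlap between the groups, against 49.5% of all genes. By complex, 7 were higher and 4 lower of 36 in complex I, none of 4 in complex II (0 at an unadjusted limma p under 0.05), 2 and 1 of 8 in complex III, 3 and 0 of 15 in complex IV and 1 and 3 of 17 in complex V. These tallies depended on the trend with GC content described below: with it removed, 4 were higher and 5 lower in complex I, 0 and 0 in complex II, 1 and 0 in complex III, 2 and 4 in complex IV and 0 and 1 in complex V. Complexes were assigned by symbol. The 4 higher under complex I names with the trend removed include Ndufa4, a protein of complex IV. Of complex V, the 3 lower as deposited include Atp5s, which is not a structural subunit.

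**Figure D2:**
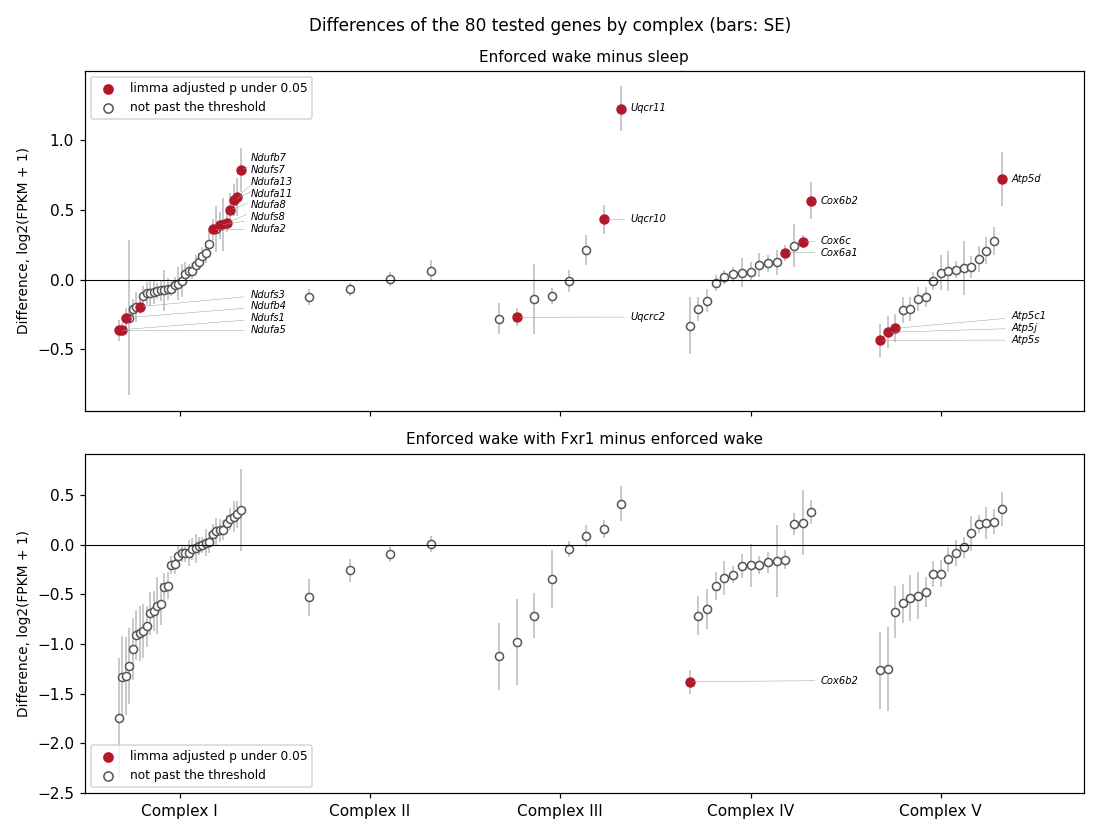
Difference on the log2(FPKM + 1) scale (y axis) of the 80 tested genes, ordered by size within each complex (x axis), with SE bars, for enforced wake minus sleep (upper) and enforced wake with Fxr1 minus enforced wake (lower). In the upper panel 13 genes are past the threshold above 0 and 8 below it, with Uqcr11 at 1.22 the highest; in the lower panel only Cox6b2 is past it, at -1.38, though many points lie below 0 with wide SE.

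In complex I the gene with the largest rise was Ndufb7, a supernumerary subunit. It stood at 53.4, 44.4 and 56.6 FPKM in enforced wake, against 32.3, 23.2 and 33.7 FPKM in sleep. Every enforced wake library lay above every sleep library, with a difference of 0.78 ± 0.16 (SE; limma adjusted p = 0.0152). Ndufa8, another supernumerary subunit, had 65.1, 65.5 and 65.4 FPKM in enforced wake and 52.0, 44.7 and 50.8 FPKM in sleep (0.41 ± 0.07, limma adjusted p = 0.00957). Ndufa13, also known as Grim19, had 63.0, 69.6 and 67.9 FPKM in enforced wake and 49.2, 37.1 and 48.9 FPKM in sleep (0.57 ± 0.12, limma adjusted p = 0.0159). The groups did not overlap for either gene.

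Among the falls in complex I, Ndufs1, the largest of its core subunits and an iron-sulphur protein, had 79.99, 77.96 and 76.66 FPKM in enforced wake, against 99.0, 102 and 101 FPKM in sleep. The spread within each group was small beside the gap, with a difference of -0.36 ± 0.05 (limma adjusted p = 0.00522). Ndufa5 had 67.2, 64.9 and 61.5 FPKM in enforced wake and 84.5, 75.7 and 90.4 FPKM in sleep (-0.36 ± 0.08, limma adjusted p = 0.0183). Ndufb4 had 70.7, 67.2 and 66.6 FPKM in enforced wake and 76.6, 90.4 and 81.2 FPKM in sleep (-0.27 ± 0.07, limma adjusted p = 0.0343). Among the nuclear core subunits, which bacterial complex I shares, Ndufs7 at 0.59 and Ndufs8 at 0.39 were higher and Ndufs1 and Ndufs3 at -0.19 were lower, while Ndufv1 at -0.01 and Ndufv2 at -0.03 did not pass. With the GC trend removed Ndufs7 (0.24, limma adjusted p = 0.101) and Ndufs8 (0.11, limma adjusted p = 0.217) did not pass, which left 2 lower core subunits and none higher.

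In complex III, Uqcr11, a small subunit of the cytochrome bc1 complex, had the largest difference of all 80 genes. It stood at 81.1, 88.7 and 91.2 FPKM in enforced wake, against 43.2, 27.9 and 40.9 FPKM in sleep, with no overlap (1.22 ± 0.16, limma adjusted p = 0.00512). Uqcr10, its fellow small subunit, had 124, 139 and 111 FPKM in enforced wake and 91.8, 83.6 and 101 FPKM in sleep (0.43 ± 0.10, limma adjusted p = 0.0249). Uqcrc2, a core protein, had 126, 125 and 113 FPKM in enforced wake and 144, 154 and 141 FPKM in sleep (-0.27 ± 0.07, limma adjusted p = 0.0266). Uqcr10 and Uqcrc2 did not pass with the GC trend removed, and each passed in 2 of 6 fits with 1 library left out.

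In complex IV the 3 genes that passed were higher, but with the GC trend removed 2 were higher and 4 lower (Cox4i1, Cox5a, Cox6a1 and Cox8a). Cox6c, a supernumerary subunit, had 189, 196 and 188 FPKM in enforced wake, against 157, 157 and 160 FPKM in sleep (0.27 ± 0.05, limma adjusted p = 0.0106). Cox6b2 had 4.53, 3.98 and 4.97 FPKM in enforced wake and 3.44, 2.25 and 2.52 FPKM in sleep (0.56 ± 0.13, limma adjusted p = 0.0246). For neither gene did the groups overlap. Cox6b2 did not pass with the GC trend removed, and it passed in 2 of 6 fits with 1 library left out. Cox6a1 had 206, 218 and 230 FPKM in enforced wake and 191, 194 and 187 FPKM in sleep (0.19 ± 0.06, limma adjusted p = 0.0484), but its direction turned when the trend with GC content was removed, as given below.

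In complex V, Atp5d, the delta subunit of the central stalk, had 89.3, 87.5 and 87.7 FPKM in enforced wake, against 65.8, 37.6 and 60.5 FPKM in sleep (0.72 ± 0.20, limma adjusted p = 0.0362). Atp5c1, the gamma subunit of the same stalk, had 179, 141 and 163 FPKM in enforced wake and 191, 221 and 204 FPKM in sleep (-0.35 ± 0.10, limma adjusted p = 0.0425). Neither passed with the GC trend removed, Atp5d at 0.41 (limma adjusted p = 0.0807) and Atp5c1 at -0.32 (limma adjusted p = 0.0568), and each passed in 2 of 6 fits with 1 library left out. Atp5j, coupling factor 6 of the peripheral stalk, had 84.5, 114 and 111 FPKM in enforced wake and 133, 131 and 135 FPKM in sleep (-0.38 ± 0.11, limma adjusted p = 0.0495). Atp5s was lower at -0.43 ± 0.12 (limma adjusted p = 0.0366), at 7.91 to 9.06 FPKM in enforced wake and 9.96 to 13.8 FPKM in sleep. Atp5j and Atp5s did not pass with the GC trend removed either, and each passed in 1 of 6 fits with 1 library left out.

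**Figure D3:**
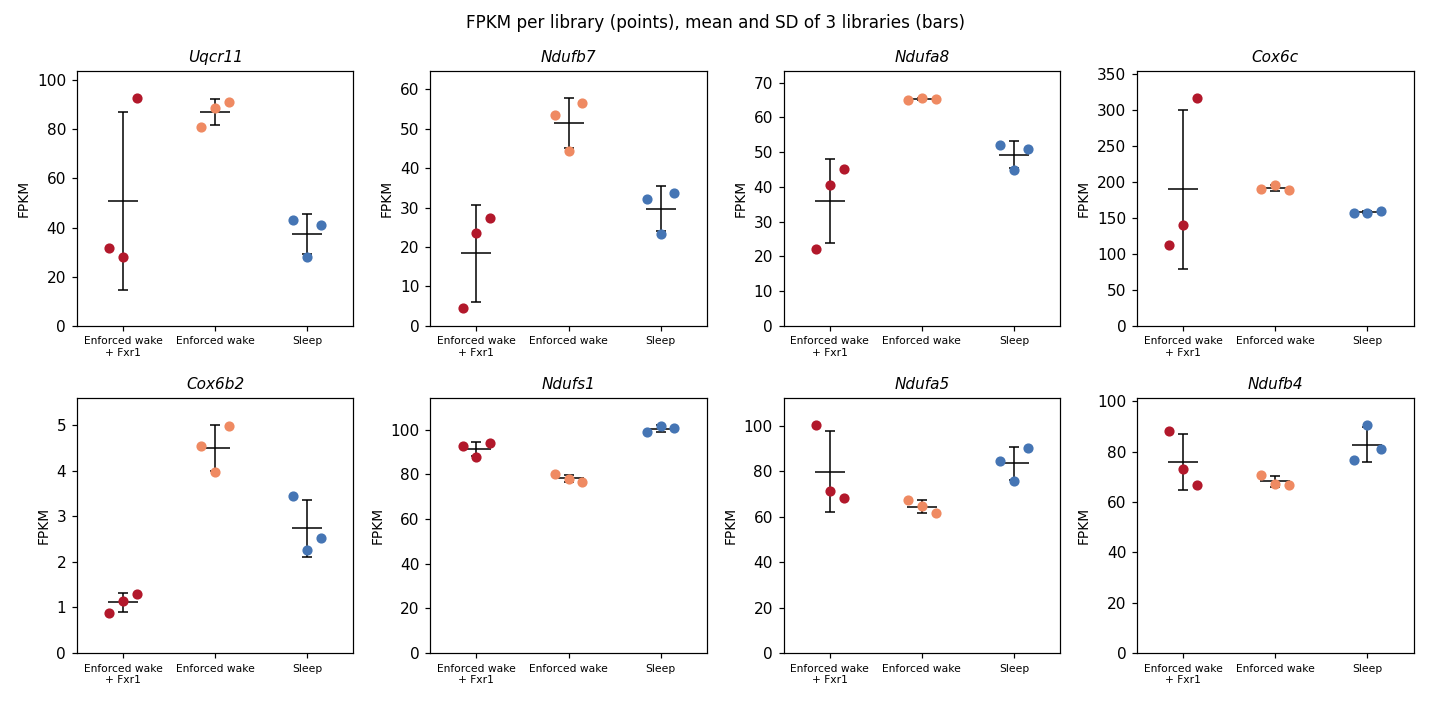
FPKM (y axis) per library (points) of 8 genes in enforced wake with Fxr1, enforced wake and sleep, with mean and SD of 3 libraries (bars). For Uqcr11, Ndufb7, Ndufa8, Cox6c and Cox6b2 the enforced wake libraries sit above the sleep libraries, for Ndufs1, Ndufa5 and Ndufb4 below them, and the Fxr1 libraries of Uqcr11 and Cox6c spread from 27.9 to 92.7 FPKM and from 112 to 316 FPKM.

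The differences tended to follow the GC content of each gene's longest transcript. Of the 20 genes with the highest GC content (54.0% to 63.4%) 9 were higher in enforced wake and none lower, with a median of 0.27, and of the 20 with the lowest (36.7% to 47.2%) 1 was higher and 3 lower, with a median of -0.12. The Spearman correlation of the differences with GC content was 0.60 over the 80 genes and 0.55 over 12530 protein-coding genes; these genes share their libraries, so no test was made. The same was seen per library: the deviation of the 80 genes from the mean of all libraries correlated with GC content at -0.59, -0.34 and -0.11 in enforced wake with Fxr1, at 0.59, 0.56 and 0.63 in enforced wake and at 0.47, -0.65 and 0.25 in sleep. After the fitted dependence on GC content and length was taken out of each library, 7 genes were higher and 10 lower, 21.2% of the genes against 23.3% of all genes (10.3% higher and 13% lower). In both fits 9 passed with the same direction: Uqcr11, Ndufb7, Ndufa8, Ndufa13 and Cox6c higher, and Ndufs1, Ndufa5, Ndufb4 and Ndufs3 lower. Cox6a1 passed in both with opposite directions, at 0.19 as deposited and -0.33 (limma adjusted p = 0.0293) with the trend removed. The removal also takes away any change in the cells that follows GC content, and whether the trend comes from the cells or from library making was not tested.

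**Figure D4:**
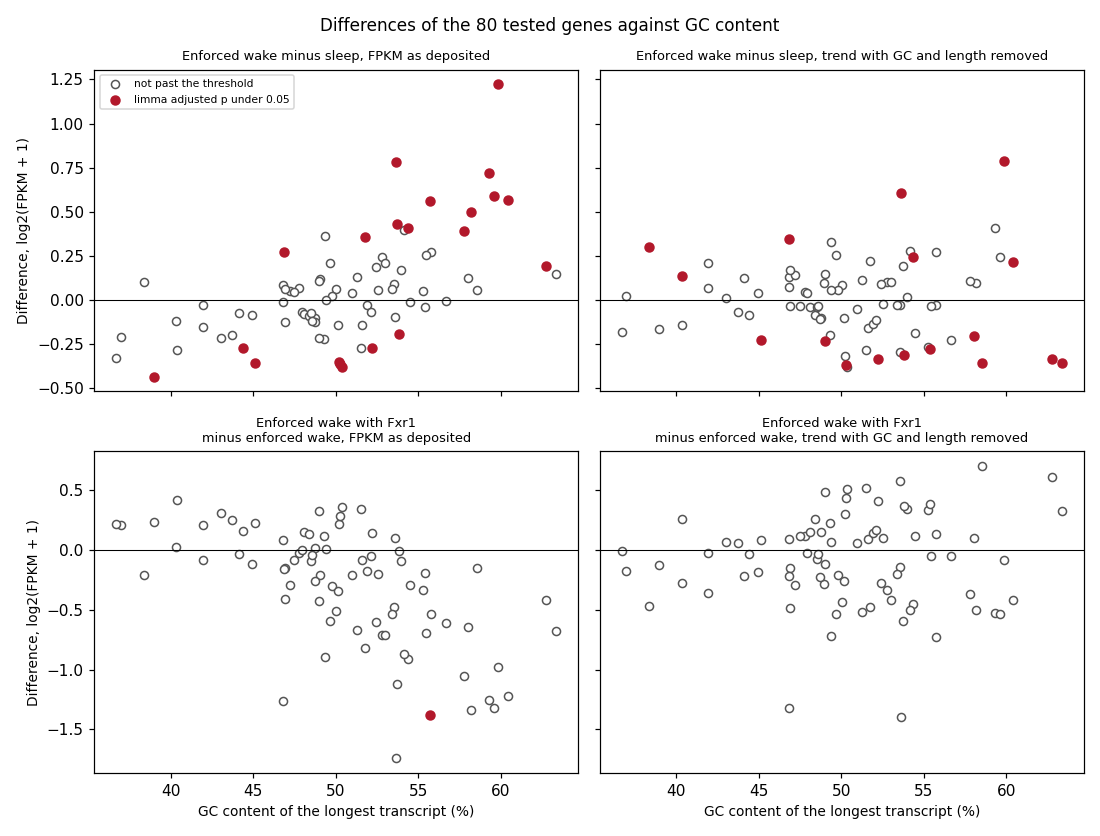
Difference on the log2(FPKM + 1) scale (y axis) against GC content of the longest transcript in percent (x axis) for the 80 tested genes, in FPKM as deposited (left) and after the fitted dependence on GC content and length was taken out (right), for enforced wake minus sleep (upper) and enforced wake with Fxr1 minus enforced wake (lower). On the left, differences climb with GC content in the upper panel (Spearman 0.60) and descend in the lower (-0.64); on the right they do not.

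The enforced wake calls depended on which libraries were in the fit, and leaving out some other libraries cost fewer calls than the fits given next. With any 1 of the 3 enforced wake libraries left out 4 to 6 genes were higher in place of 13, and with enforced wake library 2 or 3 left out 1 was lower in place of 8 (3 without sleep library 2 and 2 without sleep library 3). In a fit over all 9 libraries, in which the wider spread of the Fxr1 libraries enters, 1 gene was higher (Cox6b2) and 1 lower (Ndufs1), against 4.61% and 5% of all genes. Of 19 called genes followed through these fits, Uqcr11, Ndufa8 and Ndufs1 passed whichever 1 library was left out, and Cox6a1 in none.

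Overexpression of Fxr1 in enforced wake, against enforced wake with GFP alone, gave 1 lower gene and none higher of the 80 tested (limma adjusted p under 0.05), against 0.412% of all 14563 genes (0.0824% higher and 0.33% lower). At an unadjusted limma p under 0.05, 2 were higher and 27 lower. The share of all genes at that cut-off was not counted, so these numbers do not set the 80 genes apart. The gene past the adjusted threshold was Cox6b2. It stood at 0.89, 1.15 and 1.304 FPKM in enforced wake with Fxr1, against 4.53, 3.98 and 4.97 FPKM in enforced wake. The groups did not overlap, and the difference was -1.38 ± 0.12 (limma adjusted p = 0.0245); it did not pass with the trend with GC content removed (-0.73, limma adjusted p = 0.0997), when no gene of the 80 passed, against 0.282% of all genes. With 1 library left out in turn it passed in 2 of 6 fits, with an adjusted p of 0.00394 to 0.188 and a difference of -1.45 to -1.3. At levels near 1 FPKM the pseudocount of 1 makes the difference smaller than that of the FPKM themselves.

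Most of the other genes lay below 0 without passing. The median difference was -0.20, with all genes at -0.06, and 57 of 80 were below 0; with the trend removed the median was -0.05 and 46 were below 0. No overlap between the groups was seen for 44 of 80 genes, against 52.5% of all genes. All 20 genes with the highest GC content lay below 0, with a median of -0.68, and the 20 with the lowest had a median of 0.06. The correlation with GC content was -0.64 over the 80 genes and -0.82 over 12412 protein-coding genes. With quantile normalization the median of all genes was 0.07 in place of -0.06, and that of the 80 genes was -0.12, with 52 below 0.

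The Fxr1 libraries varied more than the others. Of the 76 genes with a mean of at least 10 FPKM, 15 differed 2-fold or more between Fxr1 libraries, against 1 in enforced wake and 2 in sleep. In Fxr1 library 1, 43 of the 76 lay below all 8 other libraries and 13 above all. The shares of all genes with such a spread or position were not counted, so these numbers do not set the 76 genes apart. The deviation of Fxr1 library 1 from the mean of all libraries correlated with GC content at -0.805 over 11521 protein-coding genes and at -0.593 over the 80 genes. Ndufb7 had 4.43 FPKM in that library and 23.6 and 27.3 FPKM in the other Fxr1 libraries, against 44.4 to 56.6 FPKM in enforced wake. Uqcr11 had 31.7 and 27.9 FPKM in Fxr1 libraries 1 and 2 and 92.7 FPKM in library 3, and Cox6c 112, 139 and 316 FPKM. For these genes 1 library sets the group's spread.

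Some members lay apart in all 3 Fxr1 libraries without passing. Ndufa8 had 22.2, 40.5 and 45.1 FPKM in enforced wake with Fxr1, against 65.1, 65.5 and 65.4 FPKM in enforced wake (-0.91, limma adjusted p = 0.0880). Cox4i1 had 141, 232 and 238 FPKM in enforced wake with Fxr1, against 302, 312 and 320 FPKM in enforced wake (-0.65, limma adjusted p = 0.0943). Both were lower in every Fxr1 library, with library 1 the lowest. Sdhb, the iron-sulphur subunit of complex II, had 47.7, 75.6 and 76.3 FPKM in enforced wake with Fxr1 and 97.7, 96.3 and 89.5 FPKM in enforced wake (-0.53, limma adjusted p = 0.103). With the GC trend removed the lowest difference in complex II was -0.23. Then 1 of its 4 genes had no overlap, against 3 as deposited, where 52.5% of all genes had none. The share of all genes with the trend removed is not given, so these counts do not set complex II apart. Ndufs1 went the other way, at 92.5, 87.9 and 93.9 FPKM in enforced wake with Fxr1 and 79.99, 77.96 and 76.66 FPKM in enforced wake (0.22 ± 0.08, limma adjusted p = 0.0984).

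Without Fxr1 library 1, 22 genes were lower and 1, Ndufs1, higher, against 17.1% and 5.69% of all genes; with all 9 libraries in 1 fit 24 were lower and 1 higher, against 16.3% and 6.72%. With that library left out and the GC trend removed, 4 were lower (Atp5g1, Cox6b2, Ndufa2 and Ndufb7) and 2 higher (Cox5a and Cox6a1), against 1.03% and 0.565% of all genes. That last setting was added after the data were seen. Cox6a1 was among the 22 lower genes without the trend removed and was higher with it removed, at 0.47 (limma adjusted p = 0.0459).

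Complexes I to V had medians of -0.10, -0.18, -0.19, -0.21 and -0.29 in this comparison, and -0.05, -0.14, -0.06, -0.0039 and -0.12 with the GC trend removed. By role, the core of complex I had a median of -0.61 (-0.36 with the trend removed) and its supernumerary subunits -0.10 (0.02). In ATP synthase the c ring had -0.68 (0.23), the other membrane subunits -0.51 (0.12), the F1 head and central stalk -0.29 (0.09) and the peripheral stalk 0.03 (-0.16), so each of these medians changed sign with the trend removed. Of the c-subunit genes, Atp5g1 had 17.9, 44.1 and 55.9 FPKM in enforced wake with Fxr1, against 83.8, 93.1 and 83.2 FPKM in enforced wake, with no overlap (-1.26 ± 0.39, limma adjusted p = 0.0909). Atp5g3 overlapped between the groups, at 358, 290 and 224 FPKM in enforced wake with Fxr1 and 275, 272 and 243 FPKM in enforced wake.

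Enforced wake with Fxr1 against sleep, fitted on all 9 libraries, gave 1 lower gene, Cox6b2, and none higher (limma adjusted p under 0.05), against 7.92% of all genes (3.27% higher and 4.65% lower). At an unadjusted limma p under 0.05, none was higher and 22 were lower, and the share of all genes at that cut-off was not counted. Cox6b2 had 3.44, 2.25 and 2.52 FPKM in sleep, above all 3 Fxr1 libraries (-0.81, limma adjusted p = 0.0150). The median difference was -0.20, with all genes at -0.09, and 65 of 80 were below 0; with the GC trend removed the median was -0.10 and 48 were below 0. Between these groups 27 of 80 genes had no overlap, against 32.7% of all genes. With the trend removed, Ndufb10 was higher and Atp5s and Sdhc lower, against 12.9% of all genes (7.19% higher and 5.7% lower). Both Fxr1 comparisons and the wake comparison share libraries, so their values stand side by side without a count of overlap: Ndufs1 differed by -0.36 in enforced wake against sleep, by 0.22 in Fxr1 against enforced wake (limma adjusted p = 0.0984) and by -0.14 in Fxr1 against sleep (limma adjusted p = 0.177).

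Single transcripts gave few calls. In enforced wake against sleep 4 of the tested transcripts passed, with 3.62% of all transcripts passing. The share among the tested transcripts of these genes was not counted, here or in the Fxr1 comparison below. The 4 came from Uqcr11, Cox6c, Ndufa8 and Cox4i1, the main nuclear subunit of complex IV. That of Uqcr11, ENSMUST00000141683, is annotated as a processed transcript, at means of 9.21 FPKM in enforced wake and 3.11 FPKM in sleep (limma adjusted p = 0.0405). The protein-coding transcript of Uqcr11, ENSMUST00000020372, did not pass, at means of 77.1 and 33.7 FPKM (limma adjusted p = 0.0506). ENSMUST00000034276 of Cox4i1, whose gene did not pass, stood at 197, 252 and 239 FPKM in enforced wake, against 125, 134 and 137 FPKM in sleep (0.78 ± 0.10, limma adjusted p = 0.0287). The transcript annotated as a retained intron, ENSMUST00000181026, had 56.1, 6.38 and 17.3 FPKM in enforced wake and 120, 87.6 and 117 FPKM in sleep, so the gene sums overlapped, at 302 to 321 FPKM in enforced wake and 250 to 316 FPKM in sleep. In Fxr1 against enforced wake 2 transcripts passed, with 0.895% of all transcripts passing. Atp5g3 ENSMUST00000018914 stood at 169, 186 and 114 FPKM in enforced wake with Fxr1, against 19.1, 40.1 and 22.5 FPKM in enforced wake (2.52 ± 0.33, limma adjusted p = 0.0437), and at 80.4, 104 and 71.3 FPKM in sleep. The other main transcript, ENSMUST00000111996, had 185, 101 and 107 FPKM in enforced wake with Fxr1 and 252, 230 and 213 FPKM in enforced wake, and the gene did not pass. Ndufb6 ENSMUST00000108108 was at 2.19, 2.20 and 1.94 FPKM in enforced wake with Fxr1, against 5.49, 4.59 and 5.78 FPKM in enforced wake (-1.01 ± 0.14, limma adjusted p = 0.0495).

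**Figure D5:**
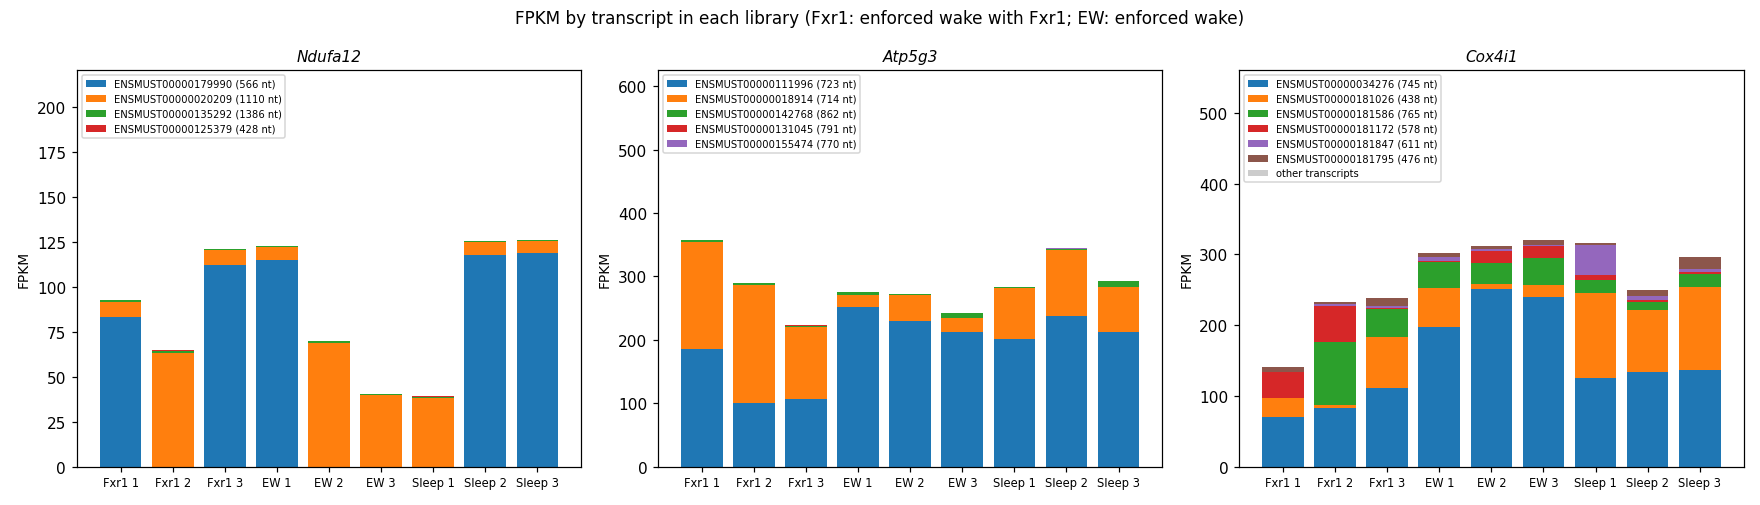
FPKM by transcript (stacked, y axis) in each library (x axis) of 3 genes. For Ndufa12 the 566-nucleotide transcript holds nearly all of the value in 5 libraries and almost none in 4, and single transcripts differ between groups while the gene sums overlap, for Atp5g3 between enforced wake with Fxr1 and enforced wake and for Cox4i1 between enforced wake and sleep.

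Where estimates switched between transcripts of different length, the gene sums could differ between libraries of 1 group. For Ndufa12, chosen for description after its values were seen, the 566-nucleotide transcript had 83.2 to 119 FPKM in Fxr1 libraries 1 and 3, enforced wake library 1 and sleep libraries 2 and 3, and under 0.01 FPKM in the other 4. In those 4 the 1110-nucleotide transcript had 38.2 to 68.9 FPKM. The gene sum was 92.4 to 126 FPKM in the first set and 39.1 to 70.1 FPKM in the second, and each group held libraries of both sets; the gene did not pass in enforced wake against sleep (-0.27 ± 0.55, limma adjusted p = 0.735).

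Genes around the respiratory chain were counted by list. Of 6 other respiratory chain proteins that the rule leaves out, none passed in any comparison (limma adjusted p under 0.05). Their median difference was -0.11 in enforced wake against sleep, 0.12 in Fxr1 against enforced wake and 0.02 in Fxr1 against sleep. In Fxr1 against enforced wake 4 were above 0 and 2 below, and with the GC trend removed the median was 0.15. Of 42 assembly factors tested, which build the complexes without staying in them, 14.3% passed in enforced wake against sleep, with all genes at 28.3%: 2 were higher (Sco2 at 0.44, a copper chaperone of complex IV, and Ecsit at 0.39) and 4 lower (Sdhaf1 at -0.53, Sco1 at -0.47, Lyrm7 at -0.44 and Nubpl at -0.38). Of 18 genes of the tricarboxylic acid cycle and pyruvate dehydrogenase 16.7% passed, none higher and 3 lower: Dld at -0.33, Pdha1 at -0.30 and Idh3a at -0.20. With the GC trend removed 1 cycle gene was lower and none higher (5.56%). Then 2 assembly factors were higher and 3 lower (11.9%), with all genes at 23.3%. Of 12 regulators of respiratory chain transcription 50% passed and 5 were higher: Esrra at 0.87, Nrf1 at 0.59, Ppargc1b and Polrmt at 0.42, and Gabpa at 0.35; Tfb2m was lower at -0.32. Esrra, an orphan nuclear receptor that works with PGC-1 coactivators, had 9.6, 11.11 and 10.98 FPKM in enforced wake, against 5.92, 4.28 and 5.97 FPKM in sleep (limma adjusted p = 0.00642), and kept its direction and its call with the trend removed. With the trend removed 3 regulators were higher and none lower, 25% of the 12 against 23.3% of all genes. In Fxr1 against enforced wake no gene of the assembly, cycle and regulator lists passed. At an unadjusted limma p under 0.05, 3 assembly factors were higher and 9 lower, and 3 cycle genes higher and 5 lower. Of the regulators, 2 were higher and 3 lower. The share of all genes at that cut-off was not counted. In Fxr1 against sleep 4 assembly factors were lower (Foxred1, Sdhaf1, Uqcc3 and Surf1), 1 cycle gene was lower (Idh3g) and 1 regulator higher (Gabpa), against 7.92% of all genes.

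The 13 subunits that mitochondrial DNA encodes had no call in any comparison as deposited (limma); with the GC and length trend removed 1, mt-Nd3, was higher in Fxr1 than in sleep. As deposited, at an unadjusted limma p under 0.05, 3 were higher in Fxr1 than in enforced wake and 9 higher in Fxr1 than in sleep. Between enforced wake and sleep 0 differed. The share of all genes at that cut-off was not counted. The 13 summed to 1873, 1016 and 1497 FPKM in enforced wake with Fxr1, 785, 884 and 1200 FPKM in enforced wake and 825, 1175 and 839 FPKM in sleep. The median difference of the 13 was 0.66 in Fxr1 against enforced wake and 0.72 in Fxr1 against sleep, while the nuclear genes had -0.20 in both. With the trend removed the 13 had medians of 0.30 and 0.64 in these comparisons, and the nuclear genes -0.05 and -0.10. All 13 were above 0 in both on either scale, but the groups' sums overlapped and the Fxr1 libraries spread widely. The cytosolic ribosomes that RiboTag captures translate the nuclear genes and not these 13. Values of the 13 therefore need not measure ribosome-bound RNA.

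By the annotation, 26 of the 84 genes have an exon that overlaps an exon on the other strand, 9 of the 21 called in enforced wake against sleep among them, such as Ndufs1 with Eef1b2 and Atp5j with Gabpa; the sources used here do not give the strand setting of counting, so such reads may not be told apart. Pseudogene rows excluded by the rule also hold signal, such as Atp5l2-ps at 29.9 to 45.4 FPKM, and reads shared with near copies leave the values of their parent genes uncertain.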

How the data were processed

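Per the submitters' processing notes, the authors used HISAT2 2.1.0, SAMtools 1.9 and StringTie 1.3.4d with GRCm38. The deposited tables give FPKM per transcript and library, together with the authors' fold ratio, p-value and q-value per transcript, which were not used; the tool behind those, the annotation and the strand setting are not given in the sources used here. Both tables hold the same enforced wake values, so all 9 libraries share 1 scale. FPKM were summed per gene symbol, and log2(FPKM + 1) was fitted with limma 3.58.1 (intensity trend, R 4.3.3). All genes with a mean of at least 0.5 FPKM in the 2 groups compared were tested. P-values were adjusted by Benjamini-Hochberg and called under 0.05. Each wake comparison used its own 6 libraries, and Fxr1 against sleep all 9. An exact permutation test of 3 against 3 cannot go below p = 0.1 and was not used. Differences understate the change of low genes. GC content and length of each gene's longest transcript came from GENCODE M21, in which 47224 of 47729 gene IDs had a position; their trend was removed per library with splines of 5 degrees of freedom fitted on genes with a mean of at least 1 FPKM. The code was checked on simulated data. Whole-fragment steps among low values put the depth at 2.99e+07 to 3.73e+07 fragments per library.

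Named genes are up to 3 called genes per comparison, complex and direction with the smallest p and no overlap, the highest gene of each complex, tissue isoforms, the core of complex I, and genes with a called transcript only. Ndufa12 and Sdhb, and genes given to spell out a count of 5 or fewer, were chosen after their values were seen. The members and lists were chosen with earlier results of these data known. Alternatives were a pseudocount of 0.1, no filter, median-ratio and quantile scaling, no intensity trend, another set of libraries, the replicate block, removal of the GC and length trend, and leaving out each library. The values of 1 gene are not reported here.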

Additional observations from a re-analysis of the deposited data

How the results depend on the processing

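Depth and 3 libraries per group limit these counts, and no setting was run that separates library making from the cells. For enforced wake against sleep, the 13 higher and 8 lower genes became 6 and 2 with no filter on low values, and 1 and 1 in the fit of all 9 libraries. Higher genes numbered 7 with the GC and length trend removed, and 4 to 13 with 1 library left out; lower genes then numbered 1 to 7. The 4 called transcripts became 1 with no filter, 7 with quantile normalization, 1 in the 9-library fit, 1 with no intensity trend and 0 to 6 with 1 library left out. For Fxr1 against enforced wake, the 0 higher genes became 1 and the 1 lower became 24 in the 9-library fit, the lower became 0 with no filter and 0 with the trend removed, and leaving out 1 library gave 0 to 1 higher and 0 to 22 lower. Its 2 transcripts became 1 with a pseudocount of 0.1, 0 with no filter, 1 with median-ratio scaling, 1 with quantile normalization, 1 with the trend removed and 0 to 11 with 1 library left out. For Fxr1 against sleep, the 1 lower gene became 0 in the 6-library fit and 0 to 3 with 1 library left out, with 0 higher in each of those fits; with the trend removed 1 was higher and 2 lower. With the trend removed and Fxr1 library 1 left out, a setting added after the data were seen, 2 were higher and 4 lower in Fxr1 against enforced wake, where Cox6a1 reversed to 0.47, and 1 higher and 2 lower in Fxr1 against sleep. Reversals in enforced wake against sleep with the trend removed are listed only for named genes that passed with or without the removal. They were Cox6a1 at -0.33, Cox8a at -0.36, Ndufa4 at 0.14, Cox4i1 at -0.20 and Atp5g2 at -0.36. Sign changes of genes that passed in neither fit are not listed. The labels do not say whether libraries with the same replicate number are paired. Correlations of their deviations from the group means ran from -0.253 to 0.167, and whether they share a batch was not tested. Used as a replicate block, the replicate numbers gave 9 higher and 4 lower genes and 0 transcripts in enforced wake against sleep. In Fxr1 against enforced wake they gave 0 lower genes and 0 transcripts. With the replicate block and the trend removed, the counts were 6 higher, 5 lower and 0 transcripts in enforced wake against sleep, where Cox6a1 stood at -0.33 and Atp5g2 at -0.36, 0 lower and 0 transcripts in Fxr1 against enforced wake, and 3 lower in Fxr1 against sleep. Apart from the trend itself, the cause of these changes was not tested.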
